A study of Rattus with 108 samples.

Results

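The 200 most abundant skin-specific genes of the rat were followed in incised skin, and in muscle and DRG (dorsal root ganglia, where the cell bodies of sensory neurons lie) of the same surgical models. They were selected on the 0 day libraries. A gene had to reach a median of 5 CPM (a gene's count scaled to a common library total) in skin. It also had to reach at least 8 times its level in muscle and in DRG, after adding 0.1 CPM, in each of the 2 surgical models. Of 32623 genes, 483 passed, and the 200 with the highest mean of the 2 models' 0 day skin medians are the members described here. That mean was 42536.2 CPM for the first member, 216 CPM for the median member and 94.5 CPM for the 200th, against 94.0 CPM for the next gene, which was left out. The lowest ratio of skin to another tissue among members was 8.23, and the highest among the 1782 genes of at least that skin level that missed the ratio was 7.77.

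The study set lateral paw incision (LPI), a model of acute postsurgical pain, beside skin/muscle incision and retraction (SMIR), a model of chronic postsurgical pain. SMIR groups were taken at 0 day, 6 hours, 2 days, 10 days and 32 days, and LPI groups at 0 day, 6 hours, 2 days and 10 days. The labels give no strain, sex or age, and no sham surgery group was used here. Each of the 27 groups held 4 libraries, 108 in all. They come from 36 rats if a column number stands for the same rat in all tissues of a model and time. Rats were perfused with saline before the tissue of the incised area or side was taken. A library is named below by the number in its column, which is not the labels' replicate number. The extraction protocol speaks of pooled animals while the labels number single ones, so p-values measure the spread between libraries. Total counts per library were 19080096 to 31620865 in LPI skin and 25249730 to 37482675 in SMIR skin. They were 21792696 to 30355655 in LPI muscle and 29218629 to 41654479 in SMIR muscle.

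Skin is an epithelium of keratinocytes, which divide in the basal layer and fill with keratins and cornified envelope proteins as they move outward, on a dermis that holds hair follicles and glands. Genes of the cornified layer, the barrier lipids and the hair shaft are known to be among the most skin-specific genes of a mammal. After a cut, keratinocytes at the wound edge are known to alter their differentiation programme while they migrate and close the gap. The files pair no gene ID with a name, so roles cannot be given for the members. Neither the tissue labels nor other cell types could be checked against named markers. In bulk tissue, fewer cells of a type and less RNA per cell cannot be told apart. Members are named by their rank in 0 day CPM, and 4 of them by their Ensembl ID.

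At 0 day the skin of the 2 models already differed in these genes. The 0 day medians were lower in SMIR skin than in LPI skin for 135 members and higher for 65, with a median log2 ratio of −0.35. In 18 members the SMIR level was at least 4-fold higher, in 25 it was at least 4-fold lower, and in 157 it lay within 4-fold. These levels chose the members and are a description without a test. The same ratio was not counted over all genes, so the difference is not shown to be particular to the members.

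The first member showed this most in absolute terms. It held 5141, 7069, 6855 and 7335 CPM in the 4 SMIR skin libraries at 0 day, against 86300, 78560, 54210 and 77660 CPM in the LPI libraries. The second held 2480 to 3390 CPM in SMIR skin and 20830 to 24800 CPM in LPI skin. For neither member did the libraries of the 2 models overlap. Per gene length, these were also the first and second members, with median levels of 3071 and 1084 FPKM (a count scaled to gene length and library total) in SMIR skin and 34709 and 9171 FPKM in LPI skin at 0 day. The median member had 92.5 FPKM, averaged over the models.

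Other members were abundant in one model and low in the other. The member ranked 8 held 4056, 4878, 6431 and 6497 CPM in SMIR skin at 0 day, against 25.1, 17.4, 22.6 and 11.2 CPM in LPI skin. The member ranked 17 held 10.9, 21.8, 5.43 and 3.91 CPM in SMIR skin, against 3326, 1855, 3322 and 2951 CPM in LPI skin. These are the extremes in each direction, with log2 ratios of 8.13 and −8.57. The direction of the difference mostly lasted. All 18 SMIR-high members stayed higher in SMIR at 6 hours and at 2 days and 11 did at 10 days, while 22, 23 and 23 of the 25 LPI-high members stayed lower in SMIR at those times.

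**Figure D1:**
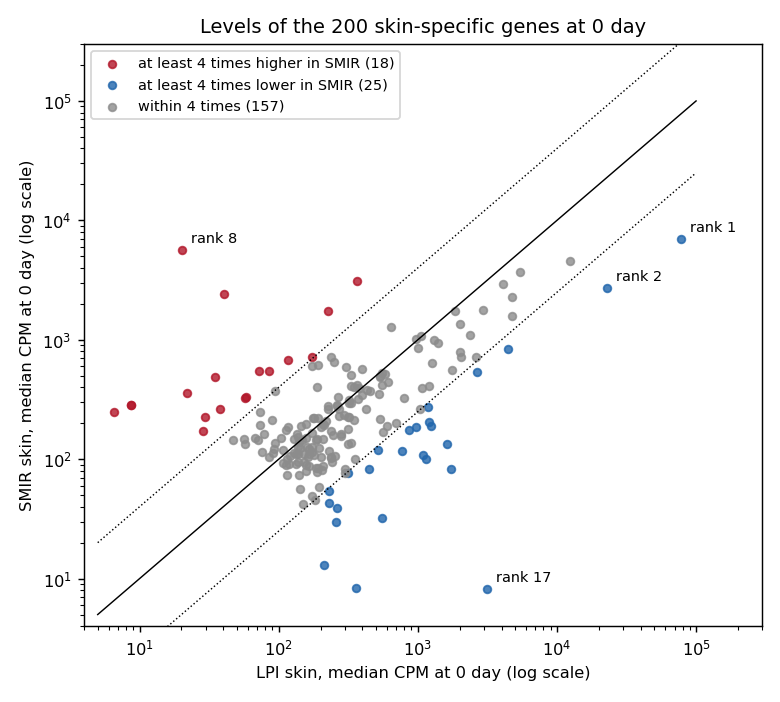
Median CPM of each of the 200 members at 0 day in SMIR skin (vertical, log scale) against LPI skin (horizontal, log scale). The solid line marks equal levels and the dotted lines 4-fold differences: 18 members lie above the upper line, 25 below the lower one, and the members ranked 1, 2, 8 and 17 are labelled.

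The members together held a large share of all skin counts. In LPI skin the summed share was 21.6% ± 1.92 at 0 day, 19.3% ± 0.959 at 6 hours, 21.2% ± 0.782 at 2 days and 17.0% ± 1.19 at 10 days (SD, n = 4 each). With TMM scaling these means were 21.2%, 21.6%, 22.3% and 14.9%, so that 6 hours and 2 days lay above 0 day and not below it. In SMIR skin it was 9.09% ± 0.459 at 0 day, 8.51% ± 0.365 at 6 hours, 12.2% ± 1.55 at 2 days, 8.75% ± 1.38 at 10 days and 11.2% ± 3.38 at 32 days. The 5 highest members alone held 11.9% ± 1.67 of LPI skin counts at 0 day, against 9.62% ± 0.518 for the other 195. After LPI the share of those 5 was 9.49% at 6 hours, 8.88% at 2 days and 8.38% at 10 days, while the other 195 held 12.3% ± 0.776 at 2 days. The SMIR 32 day libraries were far apart, from 8.12% in library 3 to 15.9% in library 4.

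After paw incision the members moved in both directions, and more were lower than higher. At 6 hours 36 of the 200 rose and 87 fell, and at 2 days 42 rose and 86 fell. A gene counts as risen or fallen when its adjusted p in edgeR's quasi-likelihood test, over all genes of the table, was under 0.05. Among all 16077 genes tested, 27.2% rose and 27.5% fell at 6 hours, and 21.8% rose and 20.2% fell at 2 days. The members' median log2 change was −0.30 at 6 hours and −0.27 at 2 days, beside −0.04 and −0.02 over all genes. Changes of at least 2-fold were seen in 18 of the members that rose and 43 of those that fell at 6 hours. At 2 days these were 22 and 45. The share of all genes that changed 2-fold is not given here. The 0 day skin libraries chose the members and so are not independent of these counts. With 200 members chosen on the SMIR libraries alone, 29 rose and 93 fell in LPI skin at 6 hours, and 33 rose and 93 fell at 2 days.

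By 10 days after paw incision 0 members had risen and 12 had fallen against 0 day, beside 0.323% and 0.255% of all genes. The median log2 change of the members was −0.32, with quartiles of −0.48 and −0.10, beside 0.02 over all genes, and 0 of the 12 reached 2-fold. At an unadjusted p under 0.05, 100 members passed, and DESeq2 called 47, all lower. The shares of all genes at these settings are not given here. The count of 12 rested on single libraries, and was 0 with a gene-length covariate and 0 when 10 days and 0 day were fitted alone. It was 0 without any one of the 0 day libraries 1, 2 and 4 or the 10 day library 5, 1 without the 10 day library 6, and 26, 30 and 36 without the 0 day library 3 and the 10 day libraries 4 and 7.

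The comparisons of successive later times use no library that chose the members. In LPI skin, 59 members rose and 42 fell at 2 days against 6 hours, beside 21.7% and 20.6% of all genes. At 10 days against 2 days 52 rose and 75 fell, beside 21.2% and 21.3% of all genes. The 10 day counts became 23 higher and 29 lower when the dependence of each library on gene length was fitted as a covariate. Of the 36 members that had risen at 6 hours against 0 day, 29 fell and 2 rose at 10 days against 2 days. Of the 87 that had fallen at 6 hours, 39 rose and 16 fell. These pairs of comparisons share no library. The same was not counted over all genes, so the reversal is not shown to be particular to the members.

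After SMIR more of these members fell than rose at 6 hours, and more rose than fell at 2 days, but the first lean depended on how members were chosen. At 6 hours 52 rose and 87 fell, beside 30.6% and 31% of 17317 genes tested, and 70 of the 87 fell at least 2-fold. At 2 days 71 rose and 53 fell, beside 28% and 23.5% of all genes. At 10 days 19 rose and 54 fell, beside 18.5% and 12.9% of all genes, and 35 rose and 83 fell when 10 days and 0 day were fitted alone. The median log2 change of the members was −0.24, 0.20 and −0.19 in that order, beside −0.01, 0.03 and 0.04 over all genes. The SMIR 0 day skin libraries were part of the choice of members and so are not independent of these counts. With 200 members chosen on the LPI libraries alone, 70 rose and 64 fell at 6 hours. In that choice 91 rose and 34 fell at 2 days, and 36 rose and 33 fell at 10 days. The lean to falls at 6 hours and 10 days was thus absent there, while the lean to rises at 2 days was kept.

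The counts at 6 hours and 2 days depended on how gene length was treated. Each library's slope of log2 CPM on log2 gene length, taken about the mean over libraries, was −0.091 to −0.072 in the 2 day SMIR libraries, against 0.039 to 0.067 at 0 day. The 2 groups did not overlap, so this trend and the time point cannot be told apart. With the slope as a covariate, 1 member rose and 14 fell at 2 days after SMIR. At 6 hours 9 rose and 103 fell, and at 10 days 21 rose and 66 fell. LPI skin slopes were −0.065 to −0.030 at 6 hours and −0.072 to −0.016 at 2 days, against 0.014 to 0.052 at 0 day. Those groups did not overlap with 0 day either. With the covariate 27 rose and 66 fell in LPI skin at 6 hours, and 29 rose and 58 fell at 2 days. Shares of all genes under this covariate are not given here, so the shift in counts is not shown to be particular to the members. Members had a median length of 2608 bases, with quartiles of 1686 and 3730, beside 2240 over the genes tested, with quartiles of 1368 and 3560.

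At 32 days after SMIR 12 members were higher and 0 lower than at 0 day, beside 3.03% and 0.525% of all genes. The median log2 change was 0.24, beside 0.04 over all genes. At an unadjusted p under 0.05, 55 members passed, and DESeq2 called 26, all higher. Shares of all genes at these settings are again not given. The count of 12 was 1, 2 and 2 without the 0 day libraries 1, 3 and 4, 6 without the 32 day library 4 and 42 without the 32 day library 3. It was 1 with the gene-length covariate and 0 when both groups were fitted alone.

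Between later times in SMIR skin, 82 members rose and 14 fell at 2 days against 6 hours, beside 22.2% and 16.4% of all genes. At 10 days against 2 days the members turned, with 9 higher and 62 lower, beside 15.8% and 17.5% of all genes. At 32 days against 10 days 72 rose and 1 fell, beside 12.4% and 11.2% of all genes. The members' median log2 change in that last step was 0.47, with quartiles of 0.23 and 0.78, beside 0.01 over all genes. Without the 32 day library 1, 113 members passed, and 38 did when 32 days and 10 days were fitted alone. With the gene-length covariate 54 rose and 26 fell at 2 days against 6 hours, 2 rose and 2 fell at 10 days against 2 days, and 49 rose and 6 fell at 32 days against 10 days. Of the 87 members that had fallen at 6 hours, 47 rose and 0 fell at 32 days against 10 days. Of the 52 that had risen, 10 rose and 1 fell in the same step. No such count was made over all genes, so this too is not shown to be particular to the members.

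**Figure D2:**
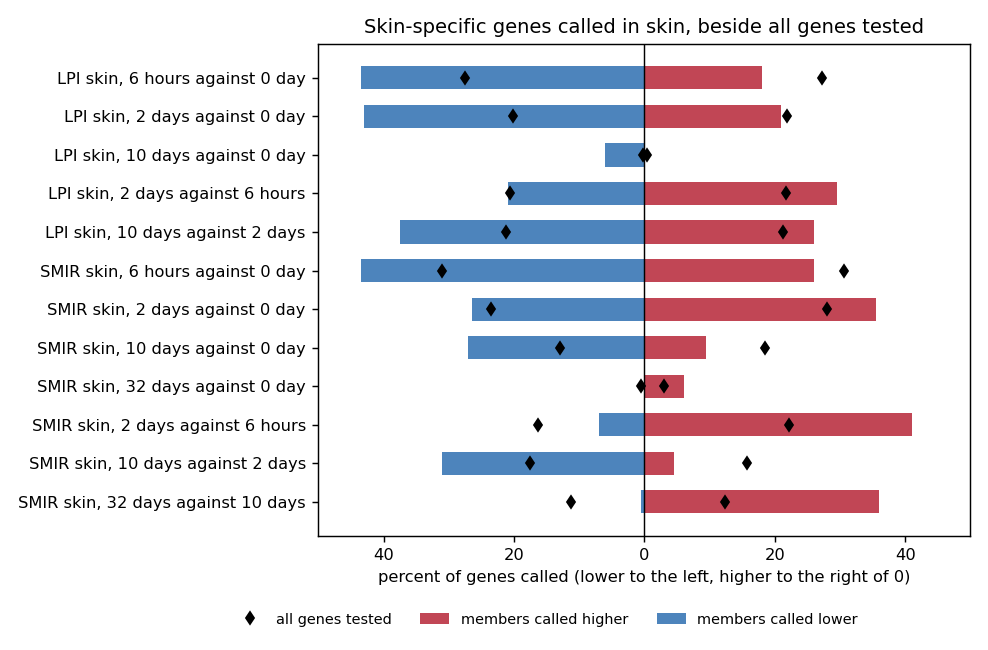
Percent of the 200 members called lower (blue, left of 0) and higher (red, right of 0) in each skin comparison, with diamonds for the percent of all genes tested. Between later SMIR times the bars lean to one side, with 82 higher and 14 lower at 2 days against 6 hours and 72 higher and 1 lower at 32 days against 10 days.

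The 18 members that were at least 4-fold higher in SMIR skin at 0 day fell after SMIR, and most of them also after LPI. After SMIR all 18 fell at 6 hours (median log2 change −2.75), 16 fell at 2 days and 15 fell at 10 days. Of the 18, 0 rose at any of these times. Among all genes tested, 31%, 23.5% and 12.9% fell at those times. At 32 days against 10 days, which uses no 0 day library, 13 rose and 0 fell, with a median of 1.67. In that step 12.4% of all genes rose and 11.2% fell. In LPI skin, where their 0 day level was lower, 13 fell at 6 hours and 12 at 2 days, with 0 rises. Over all genes 27.5% and 20.2% fell at those times. At 10 days against 2 days 13 rose and 0 fell (median 2.21), beside 21.2% and 21.3% of all genes. Other genes with a 4-fold difference between the models at 0 day were not counted. These changes are therefore not shown to be particular to the members. The members ranked 140 and 141 belong to these 18 and had counts that correlated with r of 1 over the 36 skin libraries. Reads from a near-identical copy could be shared between them, since how the authors counted such reads is not known here. The members ranked 46, 47 and 78 also tracked each other, with r from 0.997 to 0.999.

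The 25 members that were at least 4-fold lower in SMIR skin at 0 day rose more often than they fell after SMIR from 2 days on. After SMIR 8 rose and 10 fell at 6 hours, 13 rose and 2 fell at 2 days, and 11 rose and 0 fell at 10 days. Their median log2 change at 2 days was 1.04 and at 10 days 0.88. After LPI 5 rose and 13 fell at 2 days, beside 21.8% and 20.2% of all genes. Other genes that were 4-fold lower in SMIR skin at 0 day were not counted either. Membership in the 18 and the 25 was set on 0 day levels, so their counts against 0 day share libraries with that choice and are descriptions.

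**Figure D3:**
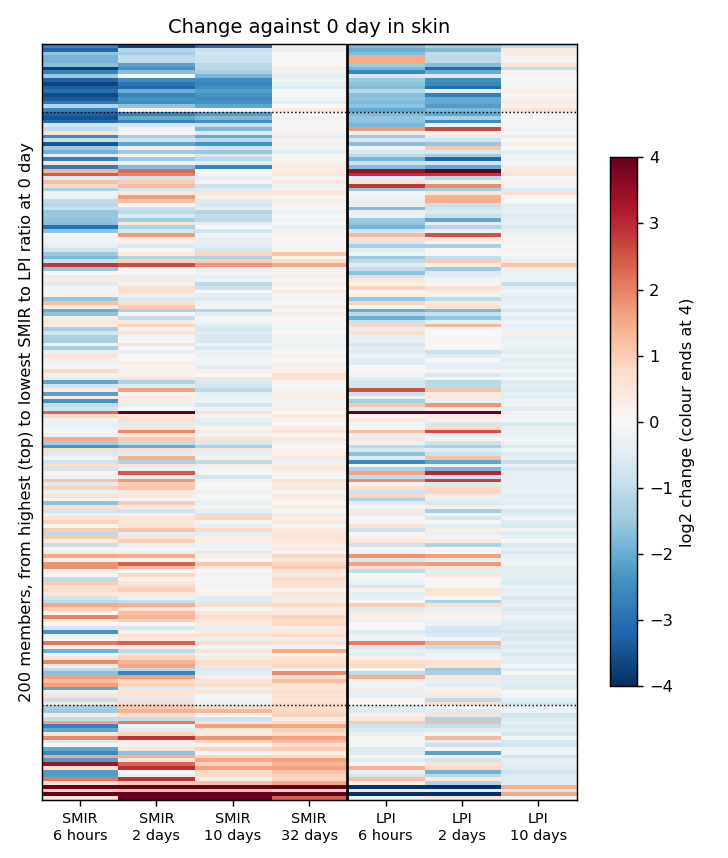
Log2 change against 0 day of each of the 200 members (rows) at each time in SMIR skin (left of the black line) and LPI skin (right). Rows run from the highest SMIR to LPI ratio at 0 day at the top to the lowest at the bottom, with dotted lines below the upper 18 and above the lower 25 members: the upper block is blue at 6 hours in SMIR, where all 18 fell.

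The member ranked 8 was one of the SMIR-high genes. In SMIR skin it held 4056 to 6497 CPM at 0 day, 622 to 929 CPM at 6 hours, 258 to 457 CPM at 2 days and 326 to 947 CPM at 10 days. At 32 days the libraries parted, with 2321, 7070, 540 and 7724 CPM. It fell at 2 days by 3.70 on the log2 scale (SE 0.56, adjusted p = 4.6e-05), and at 32 days it was higher than at 10 days by 2.76 (SE 0.54, adjusted p = 0.00153), although library 4 lay among the 10 day values.

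The most abundant member fell at different times in the 2 models. In LPI skin the first member held 9489 to 26740 CPM at 2 days, against 54210 to 86300 CPM at 0 day. The groups did not overlap, and the log2 change was −1.89 (SE 0.28, adjusted p = 7.59e-05). At 6 hours after LPI it held 47150 to 56890 CPM, a log2 change of −0.31 that did not pass (SE 0.27, adjusted p = 0.353). In SMIR skin its low point was 6 hours, with 1035 to 1412 CPM, against 5141 to 7335 CPM at 0 day. That log2 change was −2.24 (SE 0.44, adjusted p = 0.000304), and at 2 days the gene was back at 2987 to 7651 CPM. The change in SMIR minus the change in LPI was −1.97 at 6 hours (adjusted p = 0.00447) and 1.80 at 2 days (adjusted p = 0.0161). The second member was also lowest at 6 hours in SMIR skin, with 470 to 685 CPM at 6 hours, against 2480 to 3390 CPM at 0 day (log2 change −2.23, SE 0.56, adjusted p = 0.00254).

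The member ranked 17, high in LPI skin, held there 1855 to 3326 CPM at 0 day, 1545 to 2880 CPM at 6 hours, 3276 to 4149 CPM at 2 days and 1875 to 3966 CPM at 10 days. None of these changes against 0 day passed, with log2 changes from −0.22 to 0.44 (adjusted p from 0.117 to 0.953). In SMIR skin it held 448, 324, 497 and 95.1 CPM at 2 days, against 10.9, 21.8, 5.43 and 3.91 CPM at 0 day. All 4 of the 2 day libraries lay above every 0 day library, with a log2 change of 5.21 (SE 1.27, adjusted p = 0.00286). At 32 days the SMIR libraries held 3.86, 2.14, 162 and 16.2 CPM, so that library 4 stood alone.

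In 31 members the level rose at 2 days in both models with no overlap between the 2 day and 0 day libraries, and in 40 it fell in both, beside 9.87% and 9.66% of the 15926 genes tested in both models. The 2 with the largest mean rise and the 2 with the largest mean fall are given by ID, chosen after their values were seen. ENSRNOG00000059050, ranked 148 with about 1705 bases, held 12530, 9438, 12860 and 18140 CPM in LPI skin at 2 days, against 110, 208, 85.3 and 383 CPM at 0 day. Its log2 change was 6.17 (SE 0.52, adjusted p = 8.36e-07). It was already at 4674 to 5662 CPM at 6 hours and was back at 171 to 373 CPM at 10 days. After SMIR it held 3279, 2910, 3184 and 1611 CPM at 2 days, against 107 to 145 CPM at 0 day (log2 change 4.64, SE 0.43, adjusted p = 4.88e-07). At 6 hours the SMIR libraries had reached 499 to 676 CPM, and the change in SMIR minus that in LPI was −2.67 (SE 0.58, adjusted p = 0.000555).

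ENSRNOG00000026371, ranked 27, held 11460, 6548, 11650 and 16280 CPM in LPI skin at 2 days, against 439, 691, 743 and 597 CPM at 0 day (log2 change 4.35, SE 0.28, adjusted p = 4.41e-08). After SMIR it held 5306 to 5915 CPM at 2 days, against 1034 to 1541 CPM at 0 day (log2 change 2.30, SE 0.27, adjusted p = 3.99e-06). The rise was larger in LPI, with a change in SMIR minus that in LPI of −2.09 at 2 days (SE 0.37, adjusted p = 0.000217). At 10 days it held 1121 to 1491 CPM in SMIR skin, within the range of the 0 day libraries, and 732 to 1162 CPM in LPI skin, where the highest 0 day library lay above the lowest 10 day one.

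ENSRNOG00000050089, ranked 135, is one of the SMIR-high members. In SMIR skin it held 36.3, 22.4, 21.5 and 24.7 CPM at 2 days, against 238, 259, 290 and 264 CPM at 0 day (log2 change −3.13, SE 0.34, adjusted p = 1.99e-06). It was still at 27.5 to 60.3 CPM at 10 days and at 103 to 228 CPM at 32 days, below every 0 day library, although the change at 32 days did not pass (−0.61, adjusted p = 0.316). In LPI skin it held 2.07, 9.47, 7.44 and 1.83 CPM at 2 days, against 41.8, 32.6, 78.5 and 34.1 CPM at 0 day (log2 change −3.07, SE 0.77, adjusted p = 0.00577). By 10 days LPI skin held 15.8 to 93.3 CPM, a rise of 3.17 over 2 days (SE 0.77, adjusted p = 0.00467), and the change against 0 day differed between the models by −2.60 (SE 0.76, adjusted p = 0.0219).

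ENSRNOG00000019129, ranked 90 and the longest of the 4 at about 8298 bases, was also SMIR-high. SMIR skin held 33.3, 68.8, 108 and 108 CPM at 2 days, against 416, 512, 459 and 547 CPM at 0 day (log2 change −2.41, SE 0.38, adjusted p = 6.17e-05). Its lowest SMIR libraries were at 6 hours, with 21.6 to 49.7 CPM, and it regained 143 to 343 CPM at 10 days and 332 to 995 CPM at 32 days. In LPI skin it held 1.37 to 5.70 CPM at 2 days, against 20.6 to 61.8 CPM at 0 day (log2 change −3.14, SE 0.64, adjusted p = 0.00137). With the gene-length covariate the SMIR 2 day changes of 3 of these 4 genes no longer passed, nor did the LPI change of ENSRNOG00000050089, and each change kept its sign.

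**Figure D4:**
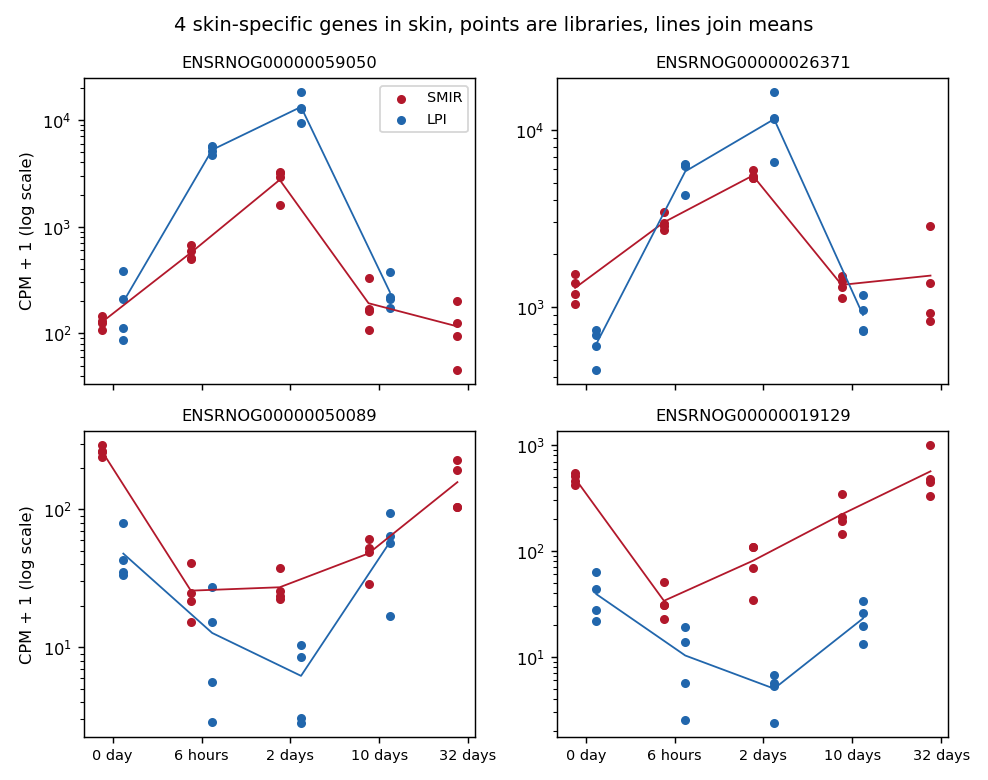
CPM plus 1 (log scale) of the 4 members given by ID in each skin library over time, SMIR in red and LPI in blue, with lines joining the group means. The upper pair peaks at 2 days in both models, and ENSRNOG00000050089 and ENSRNOG00000019129 lie below their 0 day libraries at 2 days in both.

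The 2 models shared part of these calls, and their libraries are separate. At 6 hours 19 members rose in both, which is 36.5% of those that rose in SMIR and 52.8% of those that rose in LPI, and 55 fell in both, 63.2% of each list. Over the 15926 genes tested in both models, 17.1% rose in both, which is 52.5% of the SMIR list and 62.8% of the LPI list. Of the same genes 15.1% fell in both, 48.6% and 54.4% of the lists. For rises at 6 hours the members thus shared smaller parts of both lists than all genes did, and for falls larger parts. At 2 days 36 members rose in both, 50.7% of the SMIR list and 85.7% of the LPI list, and 41 fell in both, 77.4% and 47.7%. Over all genes 14.4% rose in both at 2 days, 47.9% and 65.8% of the lists, and 10.9% fell in both, 46.8% and 54.0%. All of these counts use 0 day libraries, which chose the members. Of the 200 members, 92 had their lowest mean level of the SMIR course at 6 hours and 23 at 2 days, while 84 had that of the LPI course at 6 hours and 68 at 2 days. Of the 42 members that had risen at 2 days in LPI, 34 fell and 0 rose in SMIR skin at 10 days against 2 days. That last count has no counterpart over all genes here.

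The changes themselves differed between the models in many members, and incision site, animals and any batch cannot be told apart from the model here. At 6 hours the change in SMIR minus that in LPI was above 0 for 42 members and below 0 for 58, beside 17.8% and 20.1% of 17584 genes. At 2 days 42 were above and 9 below, beside 11.6% and 10.3% of all genes, and at 10 days 23 were above and 21 below, beside 7.84% and 6.09%. With the 10 day and 0 day groups fitted alone the 10 day counts were 43 above and 30 below. At 2 days 11 of those above were among the 25 LPI-high members, and at 10 days 10 of those below were among the 18 SMIR-high members. The 2 day count became 20 above and 8 below with the gene-length covariate. At 10 days that covariate turned the split to 11 above and 19 below.

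At 6 hours 11 of the 200 members rose in SMIR while they fell in LPI, and 4 did the reverse. Over the 15926 genes tested in both, 4.79% and 2.39% did so. The members' shares lay close to these, so opposite calls are not shown to be particular to the members. The widest gap was in the members ranked 81 and 116. In SMIR skin the member ranked 81 held 8637, 9784, 9507 and 8476 CPM at 6 hours, against 34.3, 166, 30.2 and 23.1 CPM at 0 day (log2 change 7.27, SE 1.69, adjusted p = 0.0014). In LPI skin it held 6.08, 2.60, 43.5 and 2.32 CPM at 6 hours, against 3.51, 991, 704 and 405 CPM at 0 day (log2 change −5.05, SE 1.29, adjusted p = 0.00459). The change in SMIR minus that in LPI was 12.28 (SE 2.16, adjusted p = 5.43e-05). Library 1 of LPI skin at 0 day lay within the range of the 6 hour libraries.

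At several later times this member also varied widely between libraries of a group. Its SMIR skin libraries held 2763 to 5488 CPM at 2 days, 604 to 4994 CPM at 10 days and 8473, 13.1, 50.6 and 231 CPM at 32 days, and its LPI skin libraries 565 to 2651 CPM at 10 days. The member ranked 116 moved with it, at 8978 to 11710 CPM in SMIR skin at 6 hours, against 5.61 to 114 CPM at 0 day. Over the 36 skin libraries their log2 levels correlated with r = 0.98, while the highest r of one of them with any other member was 0.81. Both stayed at most at 36.9 CPM in LPI muscle and 11.8 CPM in SMIR muscle.

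The 8-fold margin over muscle and DRG held for most members after SMIR, in 189 members at 6 hours, 188 at 2 days, 194 at 10 days and 200 at 32 days. After LPI 183 members kept it at 6 hours, 100 at 2 days and 196 at 10 days. In the 2 day LPI groups the margin was kept over muscle by 104 members and over DRG by 192. DRG held little of these genes throughout, with a summed share between 0.0388% and 0.0515% of counts over the 9 groups.

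In LPI muscle the share of counts held by the members was high in 1 library at 6 hours, in 3 of the 4 at 2 days and in 1 at 10 days. It was 0.0793% ± 0.0179 at 0 day (SD, n = 4). At 6 hours it was 3.55% in library 3, against 0.109%, 0.153% and 0.449% in the others. At 2 days it was 3.28%, 4.78% and 4.57% in libraries 1, 3 and 5 and 0.105% in library 4. At 10 days it was 4.60% in library 4 and 0.0653% to 0.104% in the others. No SMIR muscle library came near these, the highest share there being 0.246% at 6 hours, but at 32 days library 3 held 0.205%, against 0.0194% to 0.0293% in the others.

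The profile within those LPI muscle libraries was compared with the skin library of the same time and column number. In library 3 at 6 hours, library 3 at 2 days and library 4 at 10 days the median member lay at 18.3%, 21.3% and 24.4% of its skin level. Over the 200 members the rank correlation of the muscle with the skin levels was 0.95, 0.93 and 0.90, a description across genes. In the 2 day libraries 1 and 5 the median was 11.4% and 14.4% with rank correlations of 0.72 and 0.76. In these libraries the most abundant skin gene was low. The first member held 39.95 CPM in muscle library 1 and 36.5 CPM in library 5, against 16310 and 9489 CPM in the skin libraries of those numbers, while ENSRNOG00000059050 held 2069 and 3520 CPM in muscle, against 12530 and 18140 CPM in skin. In the other 3 of these 5 libraries the first member held 5244 CPM (6 hours, library 3), 2236 CPM (2 days, library 3) and 16830 CPM (10 days, library 4). The part of skin tissue in these muscle libraries was not tested.

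**Figure D5:**
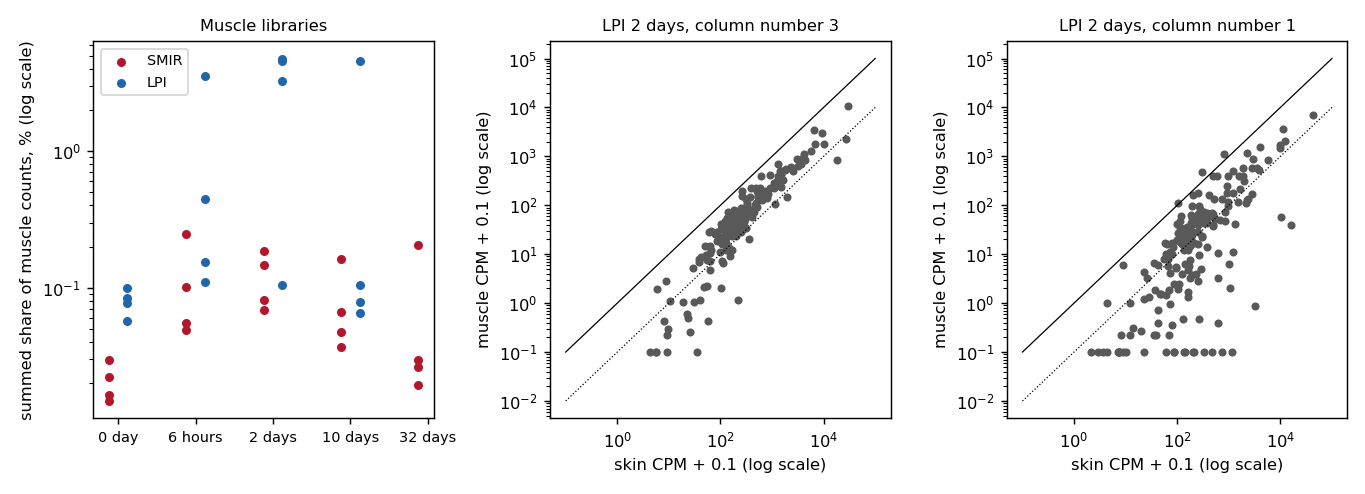
Left: summed share of the members in each muscle library (log scale) over time, SMIR in red and LPI in blue, where 5 LPI libraries lie above 3%. Middle and right: CPM plus 0.1 of each member in muscle against skin (log scales) for the LPI 2 day libraries of column numbers 3 and 1, with a solid line at equal levels and a dotted line at 0.1 times that: the members follow a band mostly above the dotted line for number 3 and scatter widely on both sides of it for number 1.

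The 0 day muscle libraries also chose the members, which had to be low in them, so the counts of calls against 0 day in muscle are a description and carry no test of the members. Of the members, 184 passed the filter on low counts in LPI muscle and 127 in SMIR muscle, and members with no count at 0 day passed only through later libraries, 20 in LPI and 6 in SMIR. In LPI muscle 48 (26.1% of those tested) were called higher and 2 (1.09%) lower at 6 hours, beside 20.6% and 15.4% of all genes. At 2 days 85 (46.2%) were called higher and 0 lower, beside 21.8% and 18.7%. Of those called higher, 2 at 6 hours and 6 at 2 days were among the 20 with no count at 0 day. These counts changed with many single libraries, of 0 day too. Without library 3 the 6 hour count of 50 became 13, and without any one of the 0 day libraries it was 10 to 15. Without the 2 day libraries 1, 3 or 5 the count of 85 became 52, 55 or 52, and without any one of the 0 day libraries 24 to 32. At 10 days, with 1 high library of 4, 0 were called higher and 0 lower, beside 0.172% and 0.148% of all genes. At an unadjusted p under 0.05, 100 members passed, and DESeq2 called 41. The shares of all genes at these settings, and without single libraries, are not given here. These counts are thus not shown to be particular to the members.

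In SMIR muscle the 0 day libraries were part of the choice in the same way. At 6 hours 27 of the 127 members tested were called higher and 2 lower. These are 21.3% and 1.57%, beside 17.7% and 14% of all genes. At 2 days 29 were called higher and 6 lower (22.8% and 4.72%), beside 25.1% and 23%. At 10 days 19 were called higher and 4 lower (15% and 3.15%), beside 22.2% and 20.9%. At 2 days and 10 days the share called higher was thus below that of all genes. Members with no count at 0 day gave 1, 2 and 1 of those called higher at 6 hours, 2 days and 10 days. At 32 days 0 were called higher and 0 lower, beside 0.0727% and 0.0121% of all genes, although 12 were called by DESeq2 and 33 had p under 0.05 before adjustment. With the gene-length covariate the split at 10 days turned to 5 higher and 16 lower. Shares of all genes under DESeq2, before adjustment and with this covariate are not given here. Those counts are thus not shown to be particular to the members.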

How the data were processed

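Skin, muscle and DRG of rats were sequenced as strand-specific TruSeq libraries on an Illumina NovaSeq instrument, per the labels' protocols. For every model and tissue the authors deposited a table of gene counts and one of FPKM values, 6 of each. Tools named in the submitters' processing notes are FastQC 0.11.2, STAR and StringTie, with the builds rn6 and hg38. How reads were assigned to genes, and with which annotation release, is not given in the sources used here. Deposited counts were whole and not normalized. The deposited FPKM values gave levels per length and, as CPM divided by FPKM, gene lengths.

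Column names give model, time code, a number and tissue. By elimination, time code 1, which matches no label, stands for 6 hours here. Each column was assigned to its group, not to a single sample, and 0 remained without a group. No 2 libraries of a group were alike within counting error: among 162 pairs the smallest chi-square of the counts was 11.3 per degree of freedom.

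Tests were two-sided quasi-likelihood tests of edgeR 4.0.16 (R 4.3.3) on the counts, with filterByExpr, TMM scaling and robust estimation. Each fit held all time points of a model and tissue, or both skin tables for the difference between models. Adjusted p-values are Benjamini-Hochberg over all genes tested and SE is the log2 change divided by the square root of F. The code was tested on simulated data: of 200 genes changed by 2-fold or 4-fold in simulated LPI skin at 6 hours, 163 were recovered among 15821 tested. Alternatives were RLE scaling, DESeq2 1.42.0, no filter, fits of the compared groups alone, a gene-length covariate, a block on the column number, leaving out each library, members chosen on the other model and TMM-scaled shares.

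The members and lists were chosen with earlier results of these data known. The files do not pair IDs with names, and 0 members matched the reference table of 47357 genes by Ensembl ID. The symbol lists and the rule for named genes (the 3 largest rises and falls per comparison, the 10 highest members and up to 3 per list) could therefore not be applied beyond 4 IDs. Those IDs are the members with the largest mean change at 2 days, 2 in each direction, among members called the same way in both models with groups apart. The members described by rank were chosen after their values were seen. No sequences are shown.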

Additional observations from a re-analysis of the deposited data

Results flagged for a closer look

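Single libraries stood apart in the summed share of counts held by the members in 4 of the groups of 4 libraries: library 3 of LPI muscle at 6 hours with 3.55%, library 4 of LPI muscle at 10 days with 4.60%, library 5 of LPI DRG at 2 days with 0.0657% and library 3 of SMIR muscle at 32 days with 0.205%. Among the genes given by ID, library 4 of LPI skin at 6 hours stood apart in ENSRNOG00000026371, at 4275 CPM, below the others at 6267 CPM or more. These are 5 of 63 groups examined, and chance alone picks out about 1 in 20.

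The change against 0 day differed between SMIR and LPI skin, by the test of the difference itself, in 100 members at 6 hours, 51 at 2 days and 44 at 10 days. ENSRNOG00000059050 rose less in SMIR, with differences of −2.67 at 6 hours and −1.57 at 2 days on the log2 scale. ENSRNOG00000026371 also rose less in SMIR, with −2.14 at 6 hours and −2.09 at 2 days. ENSRNOG00000019129 fell more in SMIR at 6 hours, with −2.002. ENSRNOG00000050089 differed at 10 days by −2.60, when it was low in SMIR skin and near its 0 day level in LPI skin.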

How the results depend on the processing

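Of 22 counts of members called, all 22 stayed within 1.5 times under RLE scaling, 21 without the filter on low counts, 16 with the replicate block on the column number, 15 in fits of the compared groups alone, 14 with the gene-length covariate and 14 with DESeq2. Of 200 counts with a library left out, 172 did, and 108 of 112 alternative values of the 4 genes given by ID stayed called with the same sign and 4 did not pass, all with the gene-length covariate. With that covariate the members called were 0 in LPI skin at 10 days (12 in the reported fit), 52 at 10 days against 2 days (127), 15 in SMIR skin at 2 days (124), 1 at 32 days (12), 4 at 10 days against 2 days (71), 28 for the difference between models at 2 days (51), 13 in LPI muscle at 6 hours (50) and 21 in SMIR muscle at 2 days (35). Column numbers do not pair the skin libraries of different times. Over 14 same-numbered pairs in LPI skin the deviations from group means correlated by −0.20 to 0.18, and over 29 pairs in SMIR skin by −0.22 to 0.24. Whether a number marks the same animal across tissues was not tested. The replicate block gave 4 in LPI skin at 10 days, 3 in SMIR skin at 32 days, 6 and 9 in LPI muscle at 6 hours and 2 days (50 and 85), 12 in SMIR muscle at 10 days (23) and 19 for the difference at 10 days (44). Fits of the compared groups alone gave 0 in LPI skin at 10 days, 118 in SMIR skin at 10 days (73), 0 at 32 days, 38 at 32 days against 10 days (73), 33 in LPI muscle at 6 hours, 35 in SMIR muscle at 10 days and 73 for the difference at 10 days. DESeq2 gave 47 in LPI skin at 10 days, 26 in SMIR skin at 32 days, 88 and 41 in LPI muscle at 6 hours and 10 days, and 44, 53, 39 and 12 in SMIR muscle at 6 hours, 2 days, 10 days and 32 days (29, 35, 23 and 0). Without the filter 28 were called in LPI muscle at 6 hours. Members chosen on LPI alone gave 22 in SMIR skin at 32 days. Leaving out each library gave 0 to 36 in LPI skin at 10 days, 1 to 42 in SMIR skin at 32 days, 60 to 113 at 32 days against 10 days, 10 to 60, 24 to 107 and 0 to 1 in LPI muscle at 6 hours, 2 days and 10 days, and 0 to 1 in SMIR muscle at 32 days. TMM scaling turned the order of the LPI skin shares at 0 day against 6 hours and 2 days, as given above. Counts under other settings, at an unadjusted p or at 2-fold are given without the share of all genes. They do not show what is particular to the members. Causes were not tested. Depth limits members at low counts in muscle and DRG.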
